A study of Mus musculus with 6 samples.

Results

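Liver RNA was compared between 3 mice with induced lipophagy and 3 control mice for the enzymes that attach glucuronic acid, glutathione or sulfate to small molecules. The members were every row of the deposited expression table whose gene symbol begins with Ugt1a, Ugt2, Ugt3, Gsta, Gstm, Gstp, Gstt, Gstk, Gsto, Gstz, Mgst or Sult, which gave 63 of 24346 rows: 20 UDP-glucuronosyltransferase and related UGT genes, 24 glutathione S-transferase (GST) genes and 19 sulfotransferase (SULT) genes. All 6 animals were male C57BL/6 mice (C57BL/6J in the study's methods), 8 weeks old when feeding began, that were fed CDAHFD, a high-fat diet that lacks choline and supplies L-amino acids in place of protein, for 6 weeks, returned to normal chow and analysed 2 weeks later. Each had received a serotype 8 adeno-associated virus whose thyroxine-binding globulin promoter drives expression in hepatocytes. The virus of the control group encoded mCherry fused to a lipid droplet-targeting sequence (LDTS) and a mutated LC3-interacting region (LDTS-LIR mut), and that of the lipophagy group carried the same parts with an engineered, LC3-binding region (LDTS-eLIR). Both groups therefore carried the droplet-targeting part, which itself adds lipid to the liver according to the study, and livers without a vector were not analysed here.

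Conjugation, also called phase II metabolism, makes lipid-soluble compounds more water-soluble so that they can leave through bile or urine. UGT enzymes sit in the endoplasmic reticulum and use UDP-glucuronic acid or related UDP-sugars, GST enzymes are mostly cytosolic and use reduced glutathione, and SULT enzymes are cytosolic and use the sulfate donor PAPS. The liver is the main site of all these reactions, which handle bilirubin, bile acids, steroid and thyroid hormones, lipid peroxidation products and drugs.

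Expression is given in FPKM, fragments scaled to transcript length and to the number mapped in the library, so that levels can be compared between genes per length. Of the 63 members, 44 averaged 0.5 FPKM or more across the 6 livers and were tested with limma on log2(FPKM + 1), together with all 11493 genes that met this minimum, and each of the 44 also exceeded it in both groups. A log2 difference below is lipophagy minus control on that scale, on which genes of low FPKM appear to differ less than they do. The depth, estimated from the smallest steps in the FPKM values, was 23.7 to 33.9 M fragments in control livers and 22.9 to 24.7 M in lipophagy livers, and the summed FPKM was higher in every lipophagy liver (709993 to 782392) than in any control liver (622696 to 681138). The sum of the members lay between 2.19% and 2.60% of this total in all 6 livers. In bulk tissue, fewer cells of a type and less RNA per cell cannot be told apart, and p-values measure only the spread between these livers.

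On the deposited values most conjugating enzymes had a somewhat higher mean in lipophagy livers, but no member passed the test across all genes. Of the 44 tested members 32 had a higher mean log2 value and 12 a lower one, with a median log2 difference of 0.17, beside 6259 higher and 5234 lower among all 11493 tested genes with a median of 0.020. With limma and Benjamini-Hochberg adjustment over all tested genes, 0 members had an adjusted p below 0.05, and the lowest adjusted p was 0.0915, for Sult2a8. Among all tested genes 3 passed, or 0.0261%. At an unadjusted p below 0.05 there were 13 higher members and 1 lower member, beside 11.5% of all tested genes higher and 7.97% lower. The 3 lipophagy livers all lay above the 3 control livers for 12 members and all below for 1, whereas 15.4% of all tested genes were separated upward and 10.8% downward (26.2% in all).

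Conjugating enzymes are abundant in liver, and abundant genes as a class stood higher in lipophagy livers, so that a second background was added after the data were seen. Among the 1408 tested genes that averaged 50 FPKM or more the median log2 difference was 0.18, 33.4% were higher at an unadjusted p below 0.05 and 3.05% were lower, and 39.7% were separated upward and 3.34% downward. Of these 1408 genes 1190 had a higher mean, as did 21 of the 29 members of this abundance. Those 29 members had a median of 0.17, with 7 higher and 1 lower at that threshold and 8 separated upward and 1 downward. The median of the members was thus no higher than that of genes of like abundance. After quantile normalization, which gives all 6 livers the same distribution of values, the median of the 44 members was 0.024, with 4 higher and 6 lower at an unadjusted p below 0.05, beside 745 higher and 899 lower among all 11493 tested genes. The plot of all tested members shows the spread of the 3 families around that background.

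**Figure D1:**
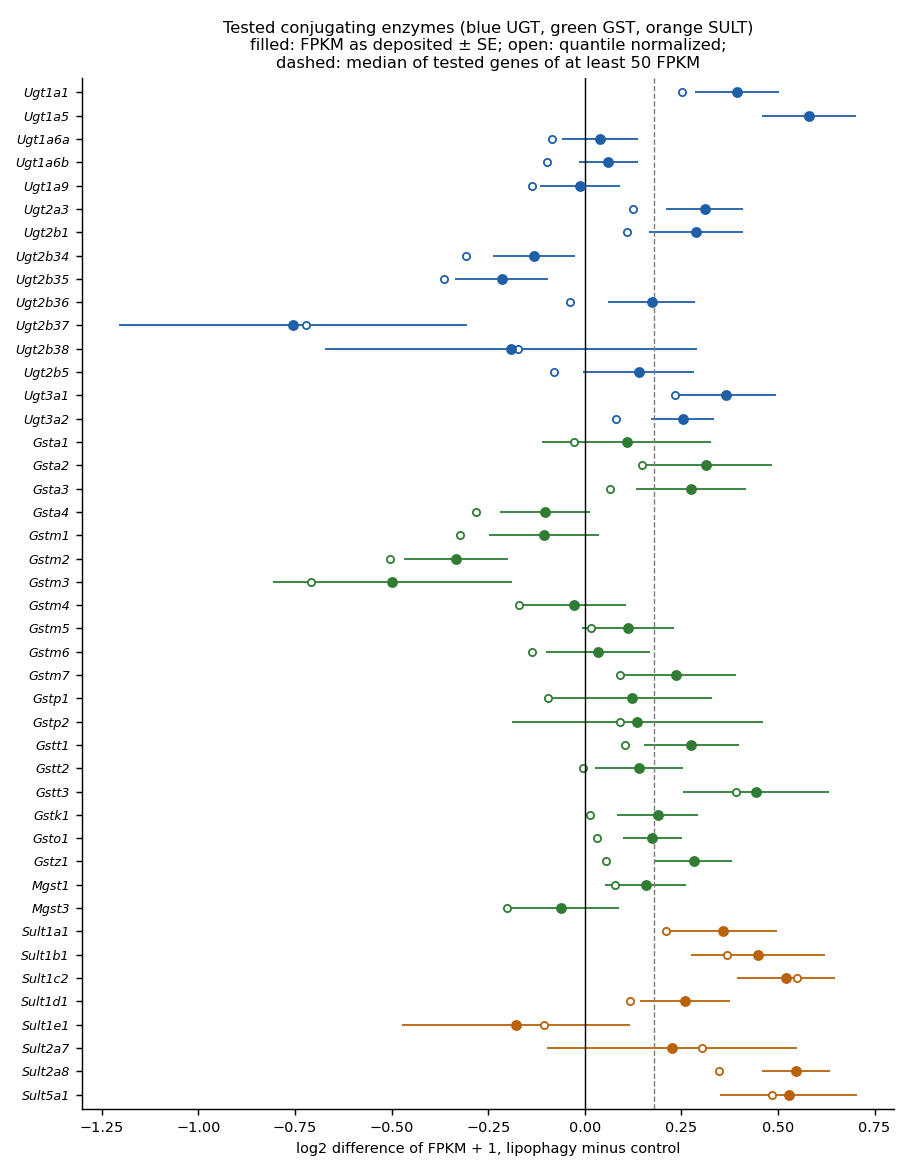
Log2 difference of FPKM + 1 between lipophagy and control livers (horizontal axis) for each of the 44 tested members, with blue UGT, green GST and orange SULT genes. Filled points with bars are the limma difference ± SE on the deposited values, open points are the same after quantile normalization, and the dashed line is the median of tested genes of at least 50 FPKM (0.18); 7 of the 8 SULT points lie above 0, whereas UGT and GST points fall on both sides.

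Of 15 tested UGT genes 10 had a higher and 5 a lower mean. At an unadjusted p below 0.05, 6 were higher and 0 lower. The share higher was 11.5% among all tested genes and 33.4% among those that averaged 50 FPKM or more. After quantile normalization 1 UGT gene was higher and 2 were lower at that threshold, and the median log2 difference of 0.14 turned to -0.079. The median of the 21 tested GST genes, 0.14 with 15 higher and 6 lower means, became 0.015. The summed UGT level was 2203, 2452 and 2199 FPKM in control livers 1, 2 and 3 and 2516, 2801 and 2333 FPKM in lipophagy livers 1, 2 and 3, so the groups overlapped. The summed GST level, at 12802, 14275 and 13093 FPKM in control livers and 14860, 15471 and 12588 FPKM in lipophagy livers, overlapped too. The smallest family was the one whose groups stood apart: SULT genes summed to 442, 391 and 420 FPKM in control livers and 580, 543 and 619 FPKM in lipophagy livers, or 418 ± 25.9 against 581 ± 37.6 (SD, n = 3), a ratio of 1.39. Sult2a8 made up 61.6% of the SULT sum, and without it the log2 ratio of the sums was 0.36 in place of 0.48. Mgst1 alone held 43.8% of the GST sum and Ugt2b5 held 29.5% of the UGT sum.

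**Figure D2:**
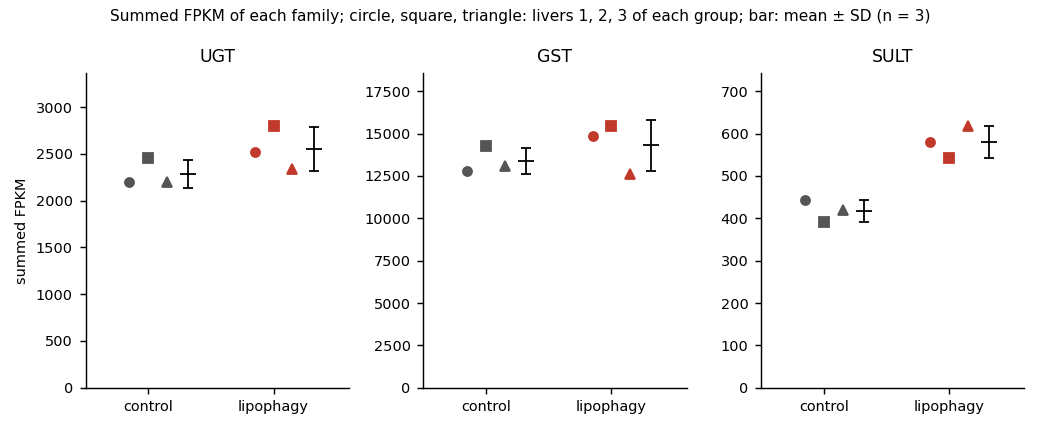
Summed FPKM (vertical axis) of the UGT, GST and SULT members in each control liver (grey) and lipophagy liver (red), with the mean ± SD of 3 livers. The SULT sums of the lipophagy livers (543 to 619) all lie above those of the control livers (391 to 442), and the UGT and GST sums overlap.

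Sulfotransferases were the family with the highest median log2 difference, 0.40 over 8 tested members, of which 7 had a higher and 1 a lower mean. At an unadjusted p below 0.05, 5 were higher, beside 11.5% of all tested genes and 33.4% of those that averaged 50 FPKM or more. Of the tested SULT genes only Sult2a8, Sult1a1 and Sult1d1 averaged that much, so that the second share is no background of like abundance for the others. Unlike those of the other families, the SULT median of 0.40 stayed near its value after quantile normalization, at 0.33. Sult2a8 lies on chromosome 7 (chr7:14410686-14446780, mm10) and belongs to the branch of the family that sulfates hydroxysteroids and bile acids. It was the most abundant member, at 270, 240 and 239 FPKM in control livers and 352, 360 and 383 FPKM in lipophagy livers. All lipophagy livers lay above all control livers, 250 ± 17.8 against 365 ± 15.9 (SD, n = 3), a ratio of 1.46. Its log2 difference was 0.55 with an SE of 0.088 (limma adjusted p = 0.0915), and 0.35 after quantile normalization. With a quality weight for each liver its limma adjusted p was 0.0435, a setting under which 39 of all tested genes passed in place of 3, and this made it the sole member below 0.05 under any alternative tried. Every 100-base window of its transcript was unique among the annotated transcripts, so that few fragments could have come from a neighbouring Sult2a gene.

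Of the other 8 Sult2 genes, 1 more was tested. Sult2a7 was low and varied 5.22-fold between livers, at 2.42, 1.44 and 0.646 FPKM in control livers and 3.37, 1.45 and 1.06 FPKM in lipophagy livers, with no separation of the groups. Sult2a1, Sult2a2, Sult2a3, Sult2a4, Sult2a5 and Sult2a6, of which Sult2a1 is the hydroxysteroid sulfotransferase that female mouse liver expresses strongly, were at or below 0.155 FPKM in each of these male livers. Sult2b1, the cholesterol sulfotransferase of skin, did not exceed 0.361 FPKM.

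Among the phenol and amine sulfotransferases of the Sult1 group, 4 of 5 tested members had a higher mean, 3 of them at an unadjusted p below 0.05 and 1 after quantile normalization, beside the shares of 11.5% and 33.4% given above. Sult1a1, which sulfates phenols and was the most abundant of them, measured 91.1, 87.0 and 107 FPKM in control livers and 136, 99.4 and 133 FPKM in lipophagy livers. The groups overlapped by lipophagy liver 2, and the log2 difference was 0.36 with an SE of 0.14 (limma adjusted p = 0.228). Sult1b1, a thyroid hormone sulfotransferase, overlapped likewise, at 16, 10.2 and 11.5 FPKM against 20.2, 14.3 and 17.6 FPKM, with a log2 difference of 0.45 ± 0.17 (SE) (limma adjusted p = 0.224). Sult1d1, which acts on catecholamines and other amines, was separated (40.2 to 48.8 FPKM against 49.9 to 63.0) but had a limma adjusted p of 0.267.

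Sult1c2, a minor member, was narrowly separated. It measured 2.75, 2.96 and 3.63 FPKM in control livers and 5.56, 5.20 and 3.99 FPKM in lipophagy livers, a ratio of means of 1.58, which rested on an estimated 119 to 224 fragments per liver. Its log2 difference was 0.52 ± 0.13 (SE) with a limma adjusted p of 0.135, and 0.55 after quantile normalization. Sult5a1 was likewise separated, at 9.90, 6.92 and 7.0 FPKM in control livers and 10.3, 10.3 and 15.3 FPKM in lipophagy livers (log2 difference 0.53 ± 0.18 SE, limma adjusted p = 0.195), although control liver 1 came close to the lipophagy livers. Sult1e1, the estrogen sulfotransferase, was the SULT member with the lower mean, 1.62 ± 0.89 against 1.33 ± 0.79 FPKM (SD, n = 3), with the lowest and the next-to-highest values both in the lipophagy group (0.501 and 2.08 FPKM) and an estimated 13 to 97.3 fragments.

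**Figure D3:**
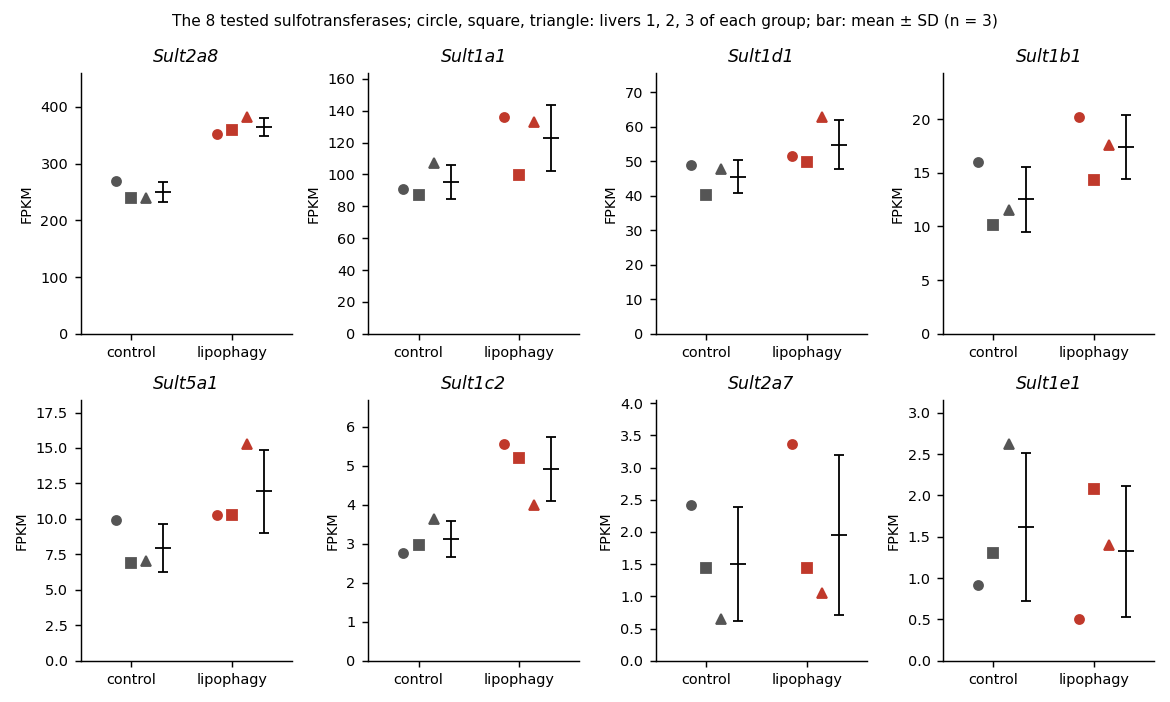
FPKM (vertical axes) of the 8 tested sulfotransferases in each control liver (grey) and lipophagy liver (red), with the mean ± SD of 3 livers. Sult2a8, Sult1d1, Sult5a1 and Sult1c2 have all lipophagy livers above all control livers, and Sult2a7 and Sult1e1 vary several-fold within a group.

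The genes of the Ugt1a locus are alternative first exons joined to one set of shared exons, so that each has its own promoter. The locus lies on the plus strand of chromosome 1. In the GENCODE annotation of the same build the exons chr1:88215044-88215175, chr1:88215795-88215882 and chr1:88216138-88216357 and the start of the last exon at 88218127 were common to 9 annotated Ugt1a genes, of which the table lists 8, and the first exon of Ugt1a1 was chr1:88211959-88212871. Only 42.8% of the 100-base windows of Ugt1a1, 36.9% of Ugt1a5, 28.5% of Ugt1a6b and 0% of Ugt1a6a occurred in no other gene's transcript, so that the FPKM of a single Ugt1a gene depends on how the counting tool divided the shared fragments.

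The summed Ugt1a level was 304, 281 and 274 FPKM in control livers and 319, 309 and 329 FPKM in lipophagy livers. The groups did not overlap, and the log2 ratio of the means was 0.16. Within the locus the difference was uneven. Ugt1a1, the enzyme that conjugates bilirubin, measured 85.5, 66.3 and 70.1 FPKM in control livers and 96.8, 91.4 and 103 FPKM in lipophagy livers, all lipophagy livers being higher (log2 difference 0.39 ± 0.11 SE, limma adjusted p = 0.156). Ugt1a5 measured 5.80, 3.91 and 4.30 FPKM in control livers and 7.53, 7.28 and 7.39 FPKM in lipophagy livers, and had the largest positive log2 difference of the 44 members, 0.58 ± 0.12 (SE) (limma adjusted p = 0.131). After quantile normalization these differences were 0.25 and 0.58.

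The other tested Ugt1a genes, which conjugate phenols and other drugs and dietary compounds, differed little. Ugt1a6b, the most abundant of the locus, measured 148, 149 and 144 FPKM in control livers and 157, 145 and 157 FPKM in lipophagy livers, with a log2 difference of 0.060 ± 0.076 (SE). Ugt1a6a was at 30.3 ± 3.85 against 31.0 ± 0.69 FPKM and Ugt1a9 at 30.1 ± 2.60 against 29.8 ± 3.25 FPKM (SD, n = 3). The ratio of 2 genes in the same liver does not depend on how that liver was scaled, and 6 such ratios were compared after the data were seen. The ratio of Ugt1a1 to Ugt1a6b was 0.578, 0.446 and 0.488 in control livers and 0.615, 0.630 and 0.654 in lipophagy livers, and that of Ugt1a5 to Ugt1a6b was 0.0318 ± 0.0066 against 0.0484 ± 0.0017 (SD, n = 3). Both ratios were separated, with an exact two-sided permutation p of 0.1 (0.15 adjusted over the 6 ratios), which is the smallest p that 3 livers against 3 allow. The ratio of Ugt1a9 to Ugt1a6b, 0.205 ± 0.015 against 0.196 ± 0.030 (SD, n = 3), overlapped (exact permutation p = 0.6, adjusted 0.6). Outside the locus the ratio of Sult2a8 to Sult1d1 was 5.50 ± 0.49 against 6.70 ± 0.57 (SD, n = 3) and was separated (exact permutation p = 0.1, adjusted 0.15). The plots of the locus show these levels and ratios together.

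**Figure D4:**
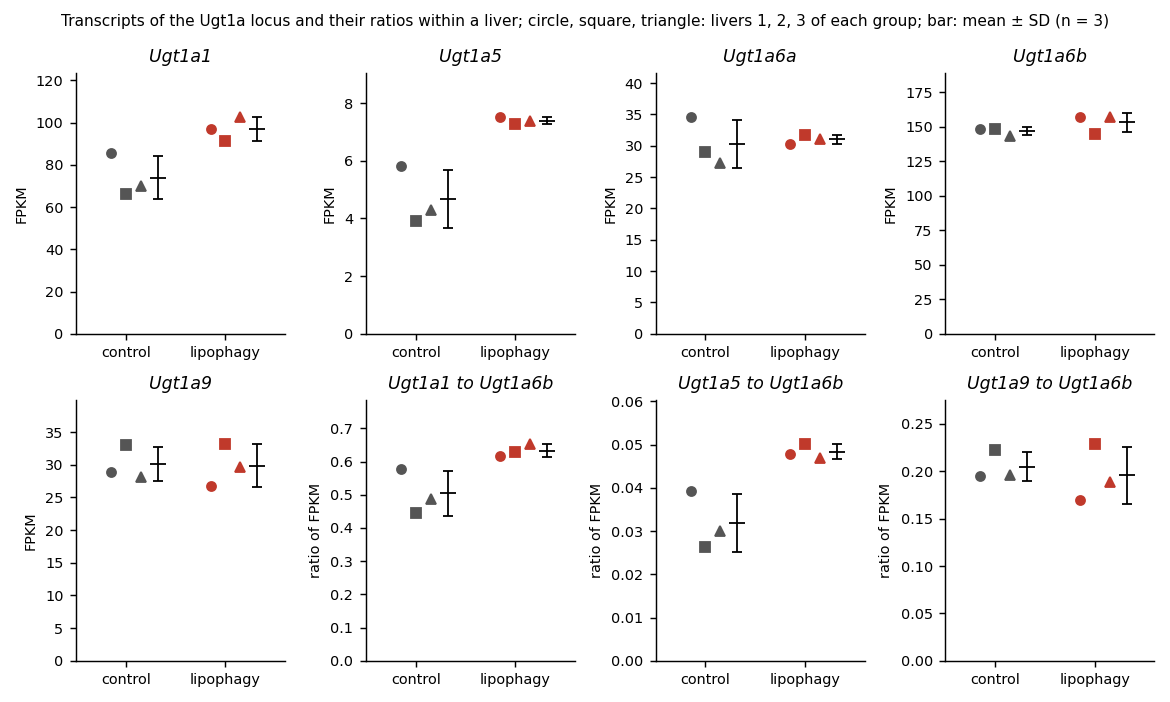
FPKM of the 5 tested Ugt1a genes and the ratios of Ugt1a1, Ugt1a5 and Ugt1a9 to Ugt1a6b (vertical axes) in each control liver (grey) and lipophagy liver (red), with the mean ± SD of 3 livers. Ugt1a1 and Ugt1a5 and their ratios to Ugt1a6b are separated between the groups, whereas Ugt1a6a, Ugt1a6b and Ugt1a9 overlap.

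Promoters were read for these genes because each Ugt1a gene starts from its own and their levels differed unevenly. Below are the 250 bases upstream of the RefSeq start (GRCm38.p6, 5′ to 3′) of Ugt1a1 (chr1:88211709-88211958, plus strand), of Ugt1a5 (chr1:88165762-88166011, plus strand), of Ugt1a6a as a gene of the locus with little difference (chr1:88134559-88134808, plus strand), and of Sult2a8 from the upstream of its 2 listed starts (chr7:14446588-14446837, minus strand). Capitals mark matches to any of 4 motifs searched on both strands: the antioxidant response element core TGACNNNGC, the STAT site TTCNNNGAA, the AP-1 site TGANTCA and the dioxin response core GCGTG.
Ugt1a1: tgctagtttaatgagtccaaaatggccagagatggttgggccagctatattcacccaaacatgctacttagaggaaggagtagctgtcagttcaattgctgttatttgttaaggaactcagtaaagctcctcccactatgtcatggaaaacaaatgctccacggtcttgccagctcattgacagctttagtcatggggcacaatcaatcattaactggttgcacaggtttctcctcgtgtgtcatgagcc
Ugt1a5: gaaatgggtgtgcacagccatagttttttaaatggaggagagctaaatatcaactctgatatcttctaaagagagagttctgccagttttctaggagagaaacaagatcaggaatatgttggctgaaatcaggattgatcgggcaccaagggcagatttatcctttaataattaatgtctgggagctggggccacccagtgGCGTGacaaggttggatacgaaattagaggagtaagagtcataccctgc
Ugt1a6a: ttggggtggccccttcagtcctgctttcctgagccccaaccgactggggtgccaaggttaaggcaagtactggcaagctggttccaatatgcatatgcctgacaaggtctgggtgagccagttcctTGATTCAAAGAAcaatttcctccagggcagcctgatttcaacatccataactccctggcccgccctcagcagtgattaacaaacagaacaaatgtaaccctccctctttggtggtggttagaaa
Sult2a8: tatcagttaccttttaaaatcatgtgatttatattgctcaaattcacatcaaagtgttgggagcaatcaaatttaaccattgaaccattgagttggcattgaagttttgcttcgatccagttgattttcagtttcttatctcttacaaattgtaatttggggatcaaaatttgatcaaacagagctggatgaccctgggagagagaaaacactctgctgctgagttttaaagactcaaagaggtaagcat

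The Ugt1a5 window held GCGTG at -49 to -45, counted from the start, and the Ugt1a6a window held a STAT match at -121 to -113 that overlapped an AP-1 match at -124 to -118. These letters were absent from the windows of Ugt1a1 and Sult2a8. Of the 39 tested members with a promoter in the RefSeq table, 4 held the antioxidant core (Gsta3, Gstm5, Gstm7 and Mgst1), 3 the STAT site, 8 the AP-1 site and 8 the dioxin core, counting a gene when any of its windows matched, beside 11.5%, 8.13%, 7.82% and 30.9% of all 27025 genes counted in the same way. The 4 members with the antioxidant core all had positive log2 differences, between 0.11 for Gstm5 and 0.28 for Gsta3, and none of them had an unadjusted p below 0.05. A match is a description of the letters and not evidence of a bound site.

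The Ugt2 genes form a cluster on chromosome 5 and glucuronidate steroids, bile acids and drugs. Ugt2b5 was the most abundant, at 605, 778 and 652 FPKM in control livers and 747, 869 and 631 FPKM in lipophagy livers, and Ugt2b36 followed at 473 to 534 FPKM against 489 to 627. Both overlapped between the groups, and both had a negative log2 difference after quantile normalization (-0.079 and -0.039). Ugt2b1 was higher at an unadjusted p below 0.05 (243, 290 and 261 FPKM against 288, 377 and 309 FPKM, log2 difference 0.29 ± 0.12 SE, limma adjusted p = 0.249), with control liver 2 just above lipophagy liver 1. Ugt2a3 was separated, at 127, 105 and 111 FPKM in control livers and 153, 132 and 140 FPKM in lipophagy livers (log2 difference 0.31 ± 0.10 SE, limma adjusted p = 0.183). After quantile normalization the log2 difference was 0.11 for Ugt2b1 and 0.13 for Ugt2a3.

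The other 4 of the 7 Ugt2b genes had lower means in lipophagy livers, and 0 of the 7 were separated. In either direction 26.2% of all tested genes were separated, and 43.0% of those that averaged 50 FPKM or more. Ugt2b35 was at 88.1 ± 6.22 FPKM in control and 76.2 ± 11.4 FPKM in lipophagy livers, and Ugt2b34 at 166 ± 12.5 and 152 ± 17.4 FPKM (SD, n = 3). Their log2 differences were -0.21 and -0.13 on the deposited values (limma adjusted p = 0.349 and 0.507) and -0.37 and -0.31 after quantile normalization. Ugt2b37 had the most negative log2 difference of the 44 members, -0.75 ± 0.45 (SE), with a limma adjusted p of 0.377. The median over the Ugt2b genes was -0.13.

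Both Ugt3a genes, which lie next to each other on chromosome 15 and whose products use UDP-sugars other than UDP-glucuronic acid, were separated. The share separated upward was 15.4% among all tested genes and 39.7% among those that averaged 50 FPKM or more. Ugt3a2 measured 157, 153 and 137 FPKM in control livers and 177, 178 and 177 FPKM in lipophagy livers, so that the lipophagy livers hardly differed among themselves (log2 difference 0.25 ± 0.082 SE, limma adjusted p = 0.183). Ugt3a1 measured 36.4, 30.5 and 26.6 FPKM against 45.8, 38.0 and 37.0 FPKM (log2 difference 0.37 ± 0.13 SE, limma adjusted p = 0.204). After quantile normalization the difference of Ugt3a2 was 0.080 and that of Ugt3a1 was 0.23.

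Glutathione transferases, the most strongly expressed family, had a median log2 difference of 0.14 over 21 tested members. At an unadjusted p below 0.05, 2 were higher and 1 lower, near the shares of all tested genes, 11.5% and 7.97%. This count is therefore no result about the family. After quantile normalization 0 were higher and 4 lower, beside 745 and 899 of 11493 tested genes. Mgst1, a membrane-bound transferase and peroxidase, was the most abundant member of all, at 5512, 6099 and 5585 FPKM in control livers and 6687, 6382 and 6108 FPKM in lipophagy livers. Its groups were narrowly separated, by 6099 against 6108 FPKM, and its log2 difference was 0.16 (limma adjusted p = 0.422). Mgst3, a microsomal enzyme of the same group, was at 58.3 ± 4.37 against 56.6 ± 12.6 FPKM (SD, n = 3).

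The zeta, omega, theta and kappa classes, which have few genes each, had higher means in all 6 tested members on the deposited values, of which Gstt2 turned to a log2 difference of -0.0059 after quantile normalization. Gstz1, which isomerizes maleylacetoacetate in tyrosine breakdown, measured 402, 386 and 382 FPKM in control livers and 538, 449 and 440 FPKM in lipophagy livers. The groups were separated, with a log2 difference of 0.28 ± 0.10 (SE) (limma adjusted p = 0.204), which was 0.054 after quantile normalization. Gsto1, an omega-class enzyme that reduces dehydroascorbate, was also separated, at 84.8, 84.7 and 82.9 FPKM against 102, 91.7 and 92.3 FPKM (log2 difference 0.18, limma adjusted p = 0.26), and its log2 difference was 0.032 after quantile normalization. Of the theta class, Gstt3 measured 9.13, 8.76 and 7.66 FPKM against 16.7, 11.2 and 8.97 FPKM (log2 difference 0.44 ± 0.19 SE, limma adjusted p = 0.252), with the difference resting mainly on lipophagy liver 1. Gstt1, the most abundant theta gene, was at 234 ± 13.1 against 286 ± 46.0 FPKM, Gstt2 at 50.6 ± 7.22 against 55.7 ± 4.59 FPKM, and Gstk1, the kappa-class enzyme of mitochondria and peroxisomes, at 120 ± 11.7 against 137 ± 12.9 FPKM (SD, n = 3), each with overlapping groups.

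The mu class is a cluster on chromosome 3. Of its 7 genes 3 had higher and 4 lower means, with a median log2 difference of -0.027. Gstm2 was the member that was lower at an unadjusted p below 0.05 and the member separated downward, at 190, 194 and 187 FPKM in control livers and 173, 165 and 120 FPKM in lipophagy livers (log2 difference -0.33 ± 0.14 SE, limma adjusted p = 0.241), and -0.50 after quantile normalization. Without lipophagy liver 3, its lowest liver, the log2 difference was -0.17. Gstm1, the most abundant mu gene, measured 2867, 3232 and 2801 FPKM in control livers and 2837, 3215 and 2283 FPKM in lipophagy livers. The groups overlapped for Gstm1, and lipophagy liver 3 was lowest.

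Of the 4 alpha genes 3 had a higher mean, among which Gsta1 turned to a log2 difference of -0.029 after quantile normalization. Gsta3, which conjugates the epoxide of aflatoxin in mouse liver, measured 1142, 1174 and 1046 FPKM in control livers and 1582, 1430 and 1098 FPKM in lipophagy livers, with overlapping groups (log2 difference 0.28, limma adjusted p = 0.317). Its log2 difference was 0.065 after quantile normalization. Divided by Gstm1 of the same liver, Gsta3 gave 0.398, 0.363 and 0.373 for the control group and 0.558, 0.445 and 0.481 for the lipophagy group. This ratio was separated (exact permutation p = 0.1, adjusted 0.15), whereas that of Gstm2 to Gstm1 overlapped (exact permutation p = 0.2, adjusted 0.24). Gsta2 was at 105 ± 7.91 against 133 ± 36.0 FPKM (SD, n = 3), Gsta4, which acts on 4-hydroxynonenal, at 143 ± 11.0 against 133 ± 19.1 FPKM, and Gsta1 at 38.7 ± 5.20 against 43.1 ± 14.6 FPKM. Gsta1 shared most of its sequence with the predicted gene Gm3776, 18.2% of its windows being unique, so that its level is uncertain.

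Several members varied more between livers of a group than between the groups. The largest ratios of the highest to the lowest liver were 5.82 for Ugt2b37, 5.37 for Ugt2b38, 5.25 for Sult1e1 and 5.22 for Sult2a7, then 2.68 for Gstm3 and 2.55 for Gstp2, among which Ugt2b38 and Sult2a7 were named for this spread after their values were seen. Ugt2b37 measured 2.62, 6.68 and 6.39 FPKM in control livers and 1.15, 6.11 and 1.80 FPKM in lipophagy livers, and Ugt2b38 measured 2.84, 7.66 and 6.72 FPKM and 1.94, 10.4 and 4.15 FPKM. Control liver 1, lipophagy liver 1 and lipophagy liver 3 were the 3 lowest for both genes, and lipophagy liver 2 stood with control livers 2 and 3.

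Gstm3 had the most negative log2 difference of the GST genes, -0.50 ± 0.31 (SE), and varied in the same way. It measured 459, 613 and 531 FPKM in control livers and 370, 619 and 231 FPKM in lipophagy livers (limma adjusted p = 0.395). Gstp1, the major pi-class transferase of mouse liver, measured 1115, 1400 and 1471 FPKM in control livers and 1228, 2000 and 1204 FPKM in lipophagy livers, and was again lowest in control liver 1 and lipophagy livers 1 and 3. Gstp2 was lower throughout, at 6.40, 14.4 and 9.0 FPKM against 6.94, 16.3 and 10.03 FPKM, and shared most of its sequence with Gstp1.

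The bile duct marker Spp1 measured 131, 227 and 236 FPKM in control livers and 87.4, 187 and 97.7 FPKM in lipophagy livers, and Krt19 measured 1.91, 4.16 and 4.05 FPKM and 1.43, 3.36 and 1.37 FPKM, so that the same 3 livers were lowest for both. The whole list of bile duct markers had 6 of 6 tested genes with a lower mean in lipophagy livers, 0 of them at an unadjusted p below 0.05 with limma and 1 after quantile normalization, beside 5234 of all 11493 tested genes with a lower mean and 7.97% lower at that threshold. Its summed level, most of it Spp1, ran from 142 to 252 FPKM in control livers and from 96.1 to 201 FPKM in lipophagy livers. No marker of the list was at 0 in all livers, and its part in the values of Ugt2b37, Ugt2b38, Gstm3 and Gstp1 was not tested. Across the 44 members, lipophagy liver 1 was the highest liver for 22, lipophagy liver 2 for 10, lipophagy liver 3 for 4, control liver 1 for 2, control liver 2 for 5 and control liver 3 for 1. Lipophagy liver 1 also had the highest summed FPKM of all genes (782392), and the same count over all tested genes was not made.

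**Figure D5:**
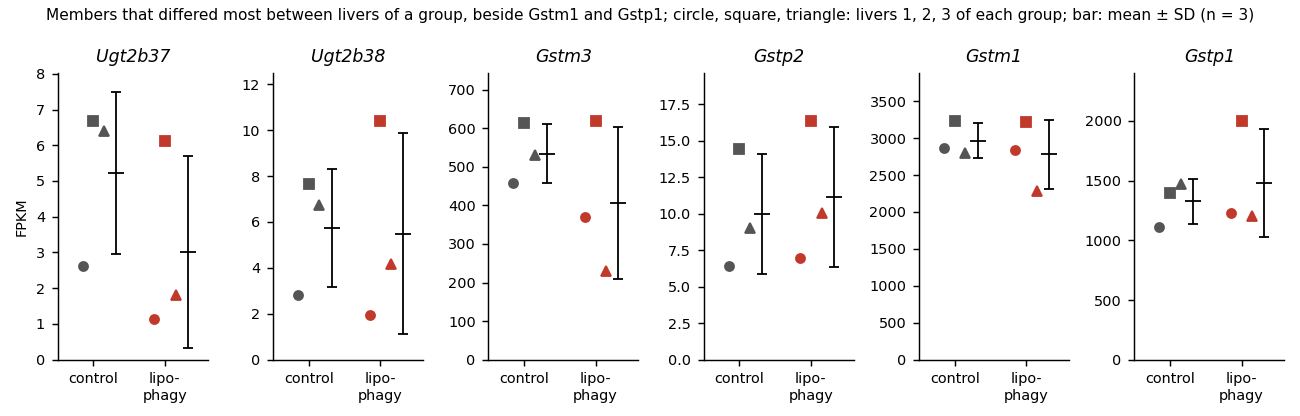
FPKM (vertical axes) of Ugt2b37, Ugt2b38, Gstm3, Gstp2, Gstm1 and Gstp1 in each control liver (grey) and lipophagy liver (red), with the mean ± SD of 3 livers. Liver 2 of the lipophagy group (square) lies above the other lipophagy livers in all 6 panels, and the groups overlap in each.

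The remaining mu genes overlapped between the groups. Gstm6 was at 124 ± 12.5 against 128 ± 20.9 FPKM, Gstm4 at 82.5 ± 11.3 against 81.0 ± 11.2 FPKM, Gstm7 at 50.3 ± 4.31 against 60.4 ± 13.9 FPKM and Gstm5 at 18.6 ± 1.53 against 20.3 ± 2.99 FPKM (SD, n = 3). The 19 members that were not tested were near or at 0 in every liver. Ugt1a7c, the highest of them, reached 0.468 FPKM, and Mgst2, the highest of the GST genes among them, reached 0.308 FPKM. Sult1c1, Sult2a3 and Sult2a4 were listed at 0 in all 6 livers, and Ugt2a1 was listed at values that stood for less than 1 fragment, as occurs when fragments shared with Ugt2a2 are divided.

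Genes that supply the cofactors were read from lists drawn up with earlier results of these data known. Their counts stand beside 11.5% of all tested genes higher and 7.97% lower at an unadjusted p below 0.05, and 745 higher and 899 lower of 11493 after quantile normalization. For UDP-sugars, 6 genes were tested, 2 higher and 1 lower at that threshold, or 2 and 2 after quantile normalization. Ugp2, which makes UDP-glucose, measured 157, 146 and 142 FPKM in control livers and 224, 190 and 177 FPKM in lipophagy livers, the groups being separated (log2 difference 0.40 ± 0.10 SE, limma adjusted p = 0.144). The log2 difference was 0.24 for Uxs1, which converts UDP-glucuronic acid to UDP-xylose, -0.23 for Slc35d1, which carries UDP-glucuronic acid into the endoplasmic reticulum, and -0.11 for Ugdh, which makes UDP-glucuronic acid (limma adjusted p = 0.571). For sulfate and PAPS, 9 genes were tested and 1 was higher at that threshold: the sulfate transporter Slc26a1, at 28.2 ± 0.75 against 36.0 ± 1.98 FPKM (SD, n = 3). Papss1 and Papss2, which make PAPS, had log2 differences of 0.21 and -0.010 (limma adjusted p = 0.291 and 0.976).

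For glutathione supply and recycling, 1 of 17 tested genes was higher and 3 were lower at an unadjusted p below 0.05, against the same shares of 11.5% and 7.97%, with a median log2 difference of 0.018, which became 0 higher and 5 lower with a median of -0.078 after quantile normalization. Gclc, the catalytic subunit of the first step of glutathione synthesis, was at 100 and 86.0 FPKM in the means of the groups (limma adjusted p = 0.37). The log2 difference was -0.52 for Chac1, which degrades glutathione, -0.25 for the thioredoxin reductase Txnrd1, -0.27 for G6pdx, which supplies NADPH, and 0.18 for Chac2.

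Several transferases are known targets of the oxidative stress factor NRF2, and its other targets were read beside them. Of 19 tested NRF2 targets that are no members, 6 had a higher and 13 a lower mean, with 0 higher and 6 lower at an unadjusted p below 0.05 and a median log2 difference of -0.12, beside 7.97% lower among all tested genes. After quantile normalization 0 were higher and 11 lower, with a median of -0.24. The heme oxygenase Hmox1 measured 24.6, 22.1 and 21.7 FPKM in control livers and 16.3, 16.2 and 17.8 FPKM in lipophagy livers, with no overlap (log2 difference -0.42 ± 0.083 SE, limma adjusted p = 0.124). The other 5, with their log2 differences, were Osgin1 (-0.92), Srxn1 (-0.35), G6pdx (-0.27), Aox1 (-0.25) and Txnrd1 (-0.25), and Nfe2l2, which encodes NRF2, had a log2 difference of -0.26 (limma adjusted p = 0.17). Nqo1, the reductase often used to follow NRF2, had a log2 difference of -0.16 (limma adjusted p = 0.26).

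Of 17 tested regulators of conjugating enzymes, 3 were higher and 2 lower at an unadjusted p below 0.05, or 1 and 2 after quantile normalization, which is near the 11.5% and 7.97% of all tested genes. Nr1i3, the nuclear receptor CAR, measured 43.0, 40.2 and 42.6 FPKM in control livers and 49.4, 49.0 and 49.5 FPKM in lipophagy livers (log2 difference 0.23 ± 0.071 SE, limma adjusted p = 0.176). Its log2 difference was 0.084 after quantile normalization. The growth hormone receptor Ghr, part of the pathway that sets sex-specific expression of Sult and Ugt2b genes, was separated, at 162, 153 and 137 FPKM against 198, 195 and 215 FPKM (log2 difference 0.43 ± 0.091 SE, limma adjusted p = 0.131). Bcl6, a repressor in the same pathway, measured 2.05, 7.13 and 5.24 FPKM against 6.42, 16.6 and 13.9 FPKM with overlap (log2 difference 1.22), and Arnt, the partner of the dioxin receptor, had a log2 difference of -0.29. The log2 difference was 0.097 for the hepatocyte factor Hnf4a, 0.016 for Stat5b and -0.024 for the dioxin receptor Ahr.

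Among 13 tested conjugate transporters, 2 were higher and 2 lower at an unadjusted p below 0.05 (1 and 1 after quantile normalization), near the shares of all tested genes, 11.5% and 7.97%, so that this count is no result about the list. Slco1a1, an uptake carrier of organic anions at the sinusoid, had the lowest adjusted p of the lists, at 55.1, 58.7 and 52.8 FPKM in control livers and 82.3, 84.7 and 87.5 FPKM in lipophagy livers (log2 difference 0.60 ± 0.077 SE, limma adjusted p = 0.071). The log2 difference was 0.24 for Slco1b2, another uptake carrier, -0.34 for the canalicular phospholipid carrier Abcb4, -0.18 for the drug exporter Abcb1a and -0.072 for Abcc2, which exports glucuronides and glutathione conjugates into bile (limma adjusted p = 0.767). Among 8 tested genes of deconjugation and hydrolysis, 2 were higher at that threshold, Ces1d with a log2 difference of 0.42 and Ephx2 with one of 0.24, whereas after quantile normalization 0 of the 8 were higher and 2 were lower at that threshold in limma. Of 14 tested methyl, acyl and amino acid transferases and ligases, 13 had a higher mean on the deposited values (median log2 difference 0.19, and 0.070 after quantile normalization) and 5 were higher at that threshold, with log2 differences for Inmt (0.74), Gnmt (0.65), Acsm3 (0.57), Glyat (0.26) and Baat (0.22). After quantile normalization 2 of the 14 were higher and 1 was lower at that threshold.

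The labelled tissue was checked against cell type markers. The 10 hepatocyte markers summed to 68802 to 74696 FPKM in control livers and 83795 to 106383 FPKM in lipophagy livers, led by Alb, and their median log2 difference was 0.17, near that of the members, and -0.025 after quantile normalization. Of 9 periportal markers 5 were higher at an unadjusted p below 0.05, with a median log2 difference of 0.41, and of 8 pericentral markers 2 were higher, with a median of 0.20, beside 11.5% higher among all tested genes. After quantile normalization the periportal markers had 1 higher and 1 lower and a median of 0.22, and the pericentral markers had 1 higher and a median of 0.022. Stellate cell markers summed to 47.3 to 51.9 FPKM against 31.5 to 37.3 FPKM, with 5 of 8 lower at that threshold, and macrophage markers to 498 to 661 FPKM against 486 to 611 FPKM, with 2 of 8 lower, beside 7.97% lower among all tested genes. After quantile normalization 4 stellate and 3 macrophage markers were lower. Of the endothelial markers 0 of 6 passed that threshold in limma, of the 3 tested lymphocyte markers 1 was lower and of the 4 tested erythroid markers 2 were higher. Kidney and gut markers summed to at most 0.483 FPKM. The part of these cell types in the differences of the conjugating enzymes was not tested.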

How the data were processed

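Liver RNA was made into stranded poly(A) libraries and sequenced as 100-base pairs. The authors deposited FPKM values per gene symbol and liver, which they had scaled to transcript length and mapped fragments. The submitters' processing notes name TopHat2 2.0.13, Bowtie2 2.2.3, SAMtools 0.1.19, Cufflinks 2.2.1 and the build mm10; the annotation is not given in the sources used here. Since FPKM are not counts, a count model was left out. The 11493 genes that averaged 0.5 FPKM or more were tested on log2(FPKM + 1) with limma 3.58.1 in R 4.3.3 (moderated variance with an intensity trend, no covariates, two-sided), Benjamini-Hochberg adjustment across these genes and a threshold of 0.05. The test was checked on simulated data.

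Single ratios were compared with exact permutation tests in scipy 1.17.1. Depth was estimated from the value of 1 fragment in low genes, with 150 bases taken off transcript lengths; fragment numbers cover counting error only. Transcripts were read from GENCODE, and positions and promoters from RefSeq (GRCm38.p6), whose promoter table held 55 of the 63 members. Protein sequences were not used here.

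Named members were those with an unadjusted p below 0.05 or with separated groups and, in each subfamily, the most abundant and the largest differences in each direction. Of the pathway lists, genes at that threshold were named, and a few well-known enzymes and regulators were added after their values were seen. The members and lists were chosen with earlier results of these data known. Groups came from the sample labels, which name an instrument (HiSeq) other than the study's methods (NovaSeq). Alternatives were other pseudocounts (0.1 and 0.5), a minimum mean of 1 FPKM or none, quantile and median scaling, no trend, the replicate number as a block, quality weights and each liver left out in turn. The counts by family, the ratios and the background of abundant genes were added after the data were seen.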

Additional observations from a re-analysis of the deposited data

How the results depend on the processing

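Of the 44 tested members 28 kept the sign of their log2 difference under all 15 alternatives and 16 lost it at least once. The adjusted count of 0 became 1 with quality weights for the livers (Sult2a8, log2 difference 0.57, adjusted p = 0.0435), while that of all genes went from 3 to 39, and over its alternatives the adjusted p of Sult2a8 ran from 0.0435 to 0.336. Under quantile normalization the members with an unadjusted p below 0.05 were 4 higher in place of 13 and 6 lower in place of 1, while among all 11493 tested genes the counts went from 1327 to 745 higher and from 916 to 899 lower; for UGT they were 1 higher in place of 6 and 2 lower in place of 0, for GST 0 higher in place of 2 and 4 lower in place of 1, and for SULT 3 higher in place of 5. Members with separated groups fell from 13 to 6, the median log2 difference of all members from 0.17 to 0.024, and that of UGT turned from 0.14 to -0.079. The log2 differences that turned negative under it were those of Gsta1 (-0.029), Gstm6 (-0.14), Gstp1 (-0.096), Gstt2 (-0.0059), Ugt1a6a (-0.084), Ugt1a6b (-0.099), Ugt2b36 (-0.039) and Ugt2b5 (-0.079). With quality weights Gstm4 and Ugt1a9 turned positive (both 0.021) and GST had 5 higher members in place of 2. Without a filter, which adds genes near 0, the medians were 0.087 for all members, 0.020 for UGT and 0.044 for SULT in place of 0.40. The SULT sum without its most abundant member gave a log2 ratio of 0.36 in place of 0.48, and the median of the single Ugt1a rows was 0.060 where the sum gave 0.16. The causes were not tested.

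The correlations of deviations of same-numbered livers were 0.250, 0.234 and -0.0565, and those of different-numbered livers ran from -0.387 to 0.251. These values do not settle whether the replicate numbers pair the livers. With the replicate number as a block, 3 members were lower at an unadjusted p below 0.05 in place of 1, of which GST held 2 and UGT 1. Among all tested genes 911 were lower in place of 916. With this block 0 members passed the adjusted threshold, beside 43 of all genes in place of 3. It changed no other of the member counts by over 1.5 times.

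When livers were left out singly, the adjusted count stayed at 0. The count at an unadjusted p below 0.05 was 6 to 17 (14 with all livers; 6 without control liver 2, 7 without control liver 3 and 9 without lipophagy liver 1), while that of all genes was 2243 with all livers, 1597, 1503 and 1464 without these 3 and 1464 to 2552 in all, of which 6 to 14 were higher and 0 to 4 lower (4 without lipophagy liver 2). For UGT it was 3 to 6 higher (3 without control liver 3) and 0 to 2 lower (2 without lipophagy liver 2), for GST 0 to 6 higher (6 without lipophagy liver 3, 0 without control liver 2 or lipophagy liver 1) and 0 to 2 lower (2 without lipophagy liver 2), and for SULT 2 to 6 higher (2 without control liver 2 or without lipophagy liver 3). Members with separated groups were 16 to 22 (22 without lipophagy liver 2), as fewer livers separate more easily. The median was 0.13 to 0.24 for all members, 0.091 to 0.25 for UGT (0.25 without lipophagy liver 3, 0.23 without control liver 2 and 0.091 without lipophagy liver 2), 0.075 to 0.20 for GST (0.075 without lipophagy liver 1) and 0.31 to 0.49 for SULT. The SULT sum kept a log2 ratio of 0.43 to 0.52. Log2 differences ran through 0 for Gsta1 (-0.14 to 0.33), Gstm1 (-0.22 to 0.029), Gstm4 (-0.12 to 0.087), Gstm6 (-0.070 to 0.17), Gstp1 (-0.12 to 0.25), Gstp2 (-0.16 to 0.42), Mgst3 (-0.23 to 0.069), Sult1e1 (-0.41 to 0.11), Sult2a7 (-0.096 to 0.48), Ugt1a6a (-0.029 to 0.14), Ugt1a9 (-0.089 to 0.062) and Ugt2b38 (-0.71 to 0.27).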
